A study of Mus musculus with 7 samples.

Results

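The 3 libraries labelled shNT are the control hairpin libraries of an RNA-seq study of RAW264.7 cells, and their transcriptome is described here on its own, gene by gene. RAW264.7 is an established mouse macrophage-like line grown from a tumour that Abelson leukaemia virus raised in a male mouse. Members were all gene symbols with a mean of at least 1 CPM over the 3 libraries, where CPM is the count of a symbol per 1000000 counts of a library after scaling between libraries. They numbered 11915 of the 55417 symbols in the count table, or 21.5%, and among protein-coding symbols 10724 of 20186, or 53.1%. These shares are the background for every list below.

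The series holds 7 libraries of this line, of which the other 4 carry hairpins against Dpep2 and entered only an alternative scaling. The shNT cells carry the hairpin of that name, and no other treatment, time or dose is stated in their labels. Every library is therefore from cells that hold a hairpin, and no untransduced RAW264.7 cells were measured among these 3. Nothing in the labels says that the replicates were separate cultures, so the spread between them may be technical. Total counts were 16548648, 18252706 and 17667140 in replicates 1, 2 and 3, and each value triplet below is in that order. Most mitochondrially encoded genes were highest in replicate 1 and lowest in replicate 3, and replicates 1 and 2 deviated in opposite directions with the GC content of genes, with the values given after the gene groups.

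Macrophages are phagocytes of the innate immune system. They carry receptors for microbial products, opsonised particles and lipoproteins, degrade what they engulf in lysosomes, and secrete cytokines and chemokines when a receptor is engaged. Macrophage identity depends on the ETS-family factor PU.1, encoded by Spi1, and survival on signalling through the CSF1 receptor. Classical activation by lipopolysaccharide is known to shift these cells toward glycolysis, to divert the tricarboxylic acid cycle toward itaconate, and to induce nitric oxide synthase and cyclooxygenase.

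Promoter sequences frame the levels that follow. Each run is the 250 bases before the RefSeq start of the gene (GRCm38.p6), read 5′ to 3′ on the strand of the gene. The first set shows the core AGGAAGT, or its reverse complement ACTTCCT, in capitals. This core is shared by binding sites of PU.1 and related ETS factors, and the 4 genes are the macrophage lineage members with the highest level per length that hold it. Spp1 lies at chr5:104434861-104435110 on the plus strand and its match begins 112 bases before the start. Lyz2 lies at chr10:117282273-117282522 on the minus strand with a match at 100 bases, and Fcgr1 at chr3:96293970-96294219 on the minus strand with a match at 61 bases. Ptprc lies at chr1:138175306-138175555 on the minus strand with matches at 113 and 58 bases.
Spp1: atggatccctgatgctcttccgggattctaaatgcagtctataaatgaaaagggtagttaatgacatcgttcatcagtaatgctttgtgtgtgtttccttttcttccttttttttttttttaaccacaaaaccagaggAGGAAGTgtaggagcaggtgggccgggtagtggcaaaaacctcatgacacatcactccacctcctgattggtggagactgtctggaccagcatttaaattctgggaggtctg
Lyz2: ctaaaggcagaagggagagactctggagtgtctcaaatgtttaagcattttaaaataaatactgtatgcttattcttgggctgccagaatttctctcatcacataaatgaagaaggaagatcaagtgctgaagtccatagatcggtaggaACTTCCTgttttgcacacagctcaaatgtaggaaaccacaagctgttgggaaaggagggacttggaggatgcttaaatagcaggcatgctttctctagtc
Fcgr1: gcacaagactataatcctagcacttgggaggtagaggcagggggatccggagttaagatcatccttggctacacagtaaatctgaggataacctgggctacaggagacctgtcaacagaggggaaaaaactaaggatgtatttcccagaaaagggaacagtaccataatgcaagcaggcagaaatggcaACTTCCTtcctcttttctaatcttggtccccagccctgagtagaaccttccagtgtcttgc
Ptprc: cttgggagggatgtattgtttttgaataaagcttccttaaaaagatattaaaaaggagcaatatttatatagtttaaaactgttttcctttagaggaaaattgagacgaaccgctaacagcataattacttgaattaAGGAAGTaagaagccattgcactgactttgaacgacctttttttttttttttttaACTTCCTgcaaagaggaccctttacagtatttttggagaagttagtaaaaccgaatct

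The second set shows the core of the interferon-stimulated response element in capitals, searched as GAAA, any 2 bases and GAAA again, on both strands. These are the 3 interferon-response genes with the highest level per length that hold it. The window of Bst2 is chr8:71537473-71537722 with overlapping matches that begin 130 and 124 bases before the start. That of Trim30a is chr7:104465194-104465443 with a match at 36 bases, and that of Ifitm2 is chr7:140955962-140956211 with a match at 46 bases. All 3 are on the minus strand.
Bst2: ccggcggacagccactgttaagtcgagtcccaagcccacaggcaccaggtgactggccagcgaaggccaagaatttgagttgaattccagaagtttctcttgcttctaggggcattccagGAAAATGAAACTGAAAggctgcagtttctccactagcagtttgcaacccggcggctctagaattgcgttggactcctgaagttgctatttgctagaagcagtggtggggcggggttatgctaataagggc
Trim30a: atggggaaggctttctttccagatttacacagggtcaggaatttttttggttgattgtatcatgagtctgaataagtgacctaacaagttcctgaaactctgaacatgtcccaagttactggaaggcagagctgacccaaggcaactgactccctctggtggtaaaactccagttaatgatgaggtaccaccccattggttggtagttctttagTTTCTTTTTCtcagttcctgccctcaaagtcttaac
Ifitm2: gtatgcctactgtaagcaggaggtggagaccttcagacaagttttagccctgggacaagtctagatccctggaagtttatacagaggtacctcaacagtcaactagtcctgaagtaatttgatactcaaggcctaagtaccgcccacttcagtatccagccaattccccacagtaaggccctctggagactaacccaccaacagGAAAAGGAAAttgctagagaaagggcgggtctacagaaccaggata

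The third set shows CGGAAGT, the core that GABP and other broadly expressed ETS factors bind, in capitals. These are the 2 protein-coding genes with the highest level per length that hold it, outside ribosomal protein genes. Laptm5, which encodes a lysosomal membrane protein of haematopoietic cells, lies at chr4:130913066-130913315 on the plus strand with a match at 64 bases. P4hb, which encodes protein disulfide isomerase, lies at chr11:120573254-120573503 on the minus strand with a match at 196 bases.
Laptm5: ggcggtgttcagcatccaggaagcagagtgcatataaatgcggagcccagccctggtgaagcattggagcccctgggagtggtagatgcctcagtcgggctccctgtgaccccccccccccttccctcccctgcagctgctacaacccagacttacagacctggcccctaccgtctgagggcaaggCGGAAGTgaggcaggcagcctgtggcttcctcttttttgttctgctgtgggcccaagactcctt
P4hb: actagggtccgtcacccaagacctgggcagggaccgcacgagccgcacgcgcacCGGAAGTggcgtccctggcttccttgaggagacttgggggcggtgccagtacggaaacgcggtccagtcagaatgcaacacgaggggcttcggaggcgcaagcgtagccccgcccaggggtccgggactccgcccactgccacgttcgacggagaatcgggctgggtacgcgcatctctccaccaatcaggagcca

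Macrophage markers come first. Their list was chosen with earlier results of these data known, so their levels are no independent check of the cell label. Of 25 macrophage lineage genes, 22 reached 1 CPM and 18 reached 100 CPM, and none was at 0 counts. Spp1, which encodes the secreted phosphoprotein osteopontin, gave 20297, 19446 and 20181 CPM. Lyz2, lysozyme of myeloid cells, gave 9870.1, 8785 and 9055 CPM. Both lay far above the mass of symbols, and the 3 libraries of each were within 1.12-fold of one another. Adgre1, which encodes the F4/80 antigen, gave 142, 127 and 132 CPM. Cd68, which encodes a lysosomal glycoprotein, gave 473, 539.6 and 292 CPM, and its library of replicate 3 was the low one. Dpep2, the membrane dipeptidase that the other hairpins of the study target, stood at 56.0, 60.1 and 52.6 CPM.

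Receptors and adhesion molecules that define the lineage were abundant. Cd14, the lipopolysaccharide coreceptor, gave 2096, 1980.4 and 2097 CPM, and Csf1r, the receptor for CSF1, gave 1197, 1146 and 1085 CPM. The integrin pair of complement receptor 3 was present through Itgam at 1351, 1209.9 and 1106 CPM and Itgb2 at 473, 506 and 432 CPM. Fcgr1, the high-affinity IgG receptor, gave 303, 291 and 253 CPM. Its signalling partner Fcer1g gave 194, 194 and 168 CPM, and Tyrobp, the adaptor of TREM receptors, gave 128, 147 and 127 CPM. Each of these genes ranged less than 1.5-fold over the libraries.

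Lineage genes under 1 CPM were few and specific. Mrc1, the mannose receptor of alternatively activated and many resident macrophages, had 34 counts over all 3 libraries. Emb had 11 counts. Mertk, the receptor tyrosine kinase that recognises apoptotic cells, had 1 count.

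**Figure D1:**
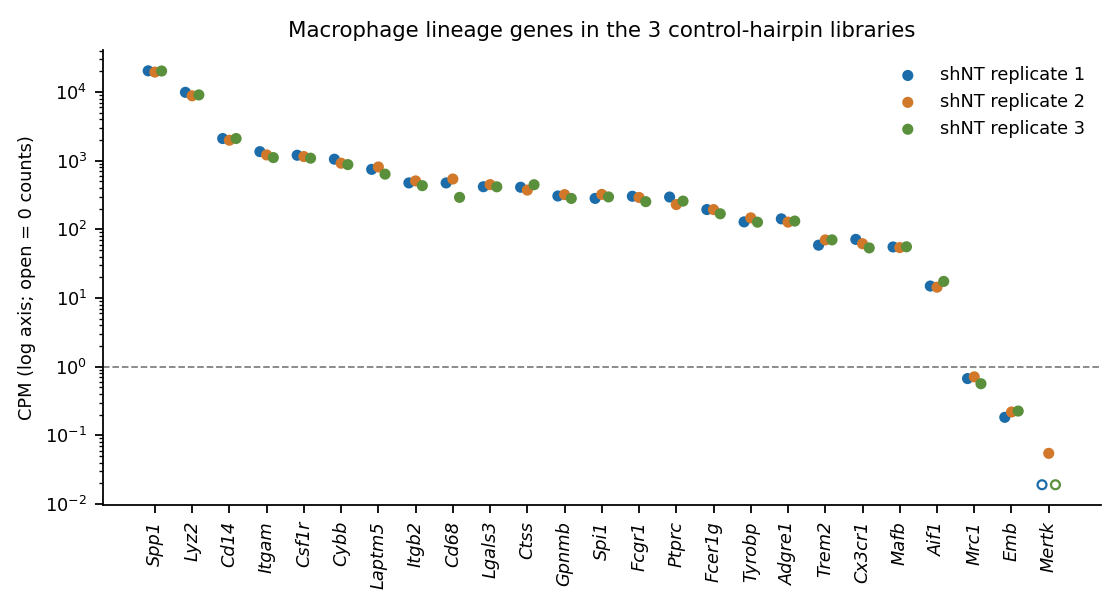
Level of the 25 macrophage lineage genes in each of the 3 shNT libraries, in CPM on a log axis, ordered by mean level; the dashed line marks 1 CPM and open points are libraries at 0 counts. The highest gene, Spp1, lies between 19446 and 20297 CPM and Mrc1, Emb and Mertk lie under the line.

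Transcription factors of the myeloid lineage were nearly all present, with 37 of 40 at 1 CPM or more. Spi1 gave 282, 322 and 296 CPM, and Cebpb, a C/EBP factor of inflammatory gene expression, gave 210.2, 268 and 303 CPM, lowest in replicate 1. Ets2, an ETS factor downstream of the CSF1 receptor, gave 387, 340.3 and 326 CPM. Irf8, a factor of monocyte differentiation, gave 114, 134 and 137 CPM and Irf5, which acts downstream of Toll-like receptors, gave 140.3, 142 and 129 CPM. The 3 factors under 1 CPM were Tfec with 8 counts, Pparg with 5 and Batf3 with 2. Pparg is needed by alveolar macrophages and Batf3 by a class of dendritic cells.

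Genes that mark macrophages of particular organs were mostly silent. Only 6 of 21 reached 1 CPM, and 9 had 0 counts in all 3 libraries. The 9 were Cd163, Clec4f, Gata6, Lyve1, Retnla, Sall1, Siglech, Timd4 and Vcam1, a set that includes markers of Kupffer cells, microglia and peritoneal macrophages. A count of 0 over a summed library size of 52479986 allows a level of up to 0.0572 CPM, the value of 3 counts, as far as counting error goes. Those present included Fabp4 at 56.0, 59.2 and 66.5 CPM, and Id3, Cd5l, Icam2 and Car4 between 3.63 and 29.7 CPM on average.

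Markers of other cell types were close to absent, as the bars of each list by level class show. In bulk libraries, few cells of a type and little RNA in each cell cannot be told apart. None of the mast cell and basophil (8), epithelial (9) or hepatocyte (8) markers reached 1 CPM, and 7, 6 and 7 of them had 0 counts. Of the T and NK cell markers 1 of 14 was a member, Lck at 4.02, 4.86 and 4.40 CPM, while Cd3e, Cd3g and Cd4 had 0 counts. Of 12 B cell markers 3 were members, namely the adaptor Blnk at 15.3, 12.4 and 13.6 CPM, Ighm at 13.3, 15.8 and 11.3 CPM and Cd79a at a mean of 2.87 ± 0.261 CPM (SD, n = 3). Igkc, Rag1 and Rag2 had 0 counts, and the summed level of the list ran from 28.3 to 32.3 CPM.

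Among 12 neutrophil markers, S100a8 and Csf3r were members. S100a8, a calcium-binding protein that macrophages can also express, gave 33.4, 18.4 and 17.2 CPM and was highest in replicate 1. Elane, Ctsg, Ltf, Ngp and Ly6g, the defining granule and surface genes, had 0 counts. The dendritic cell markers had 2 of 10 members, Clec10a at a mean of 8.38 ± 0.459 CPM (SD, n = 3) and Itgax at 2.62, 1.91 and 1.80 CPM, with Flt3 at 3 counts in all. Erythroid and megakaryocyte markers had 1 of 8, Pf4 at 1.04, 0.873 and 1.30 CPM, fibroblast and muscle markers 2 of 12, endothelial markers 2 of 8 and neural markers 1 of 8. The neural member was Mbp at 79.5, 78.8 and 71.4 CPM. Mbp encodes myelin basic protein, and its locus also gives rise to golli transcripts in haematopoietic cells, which a count per symbol does not separate.

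**Figure D2:**
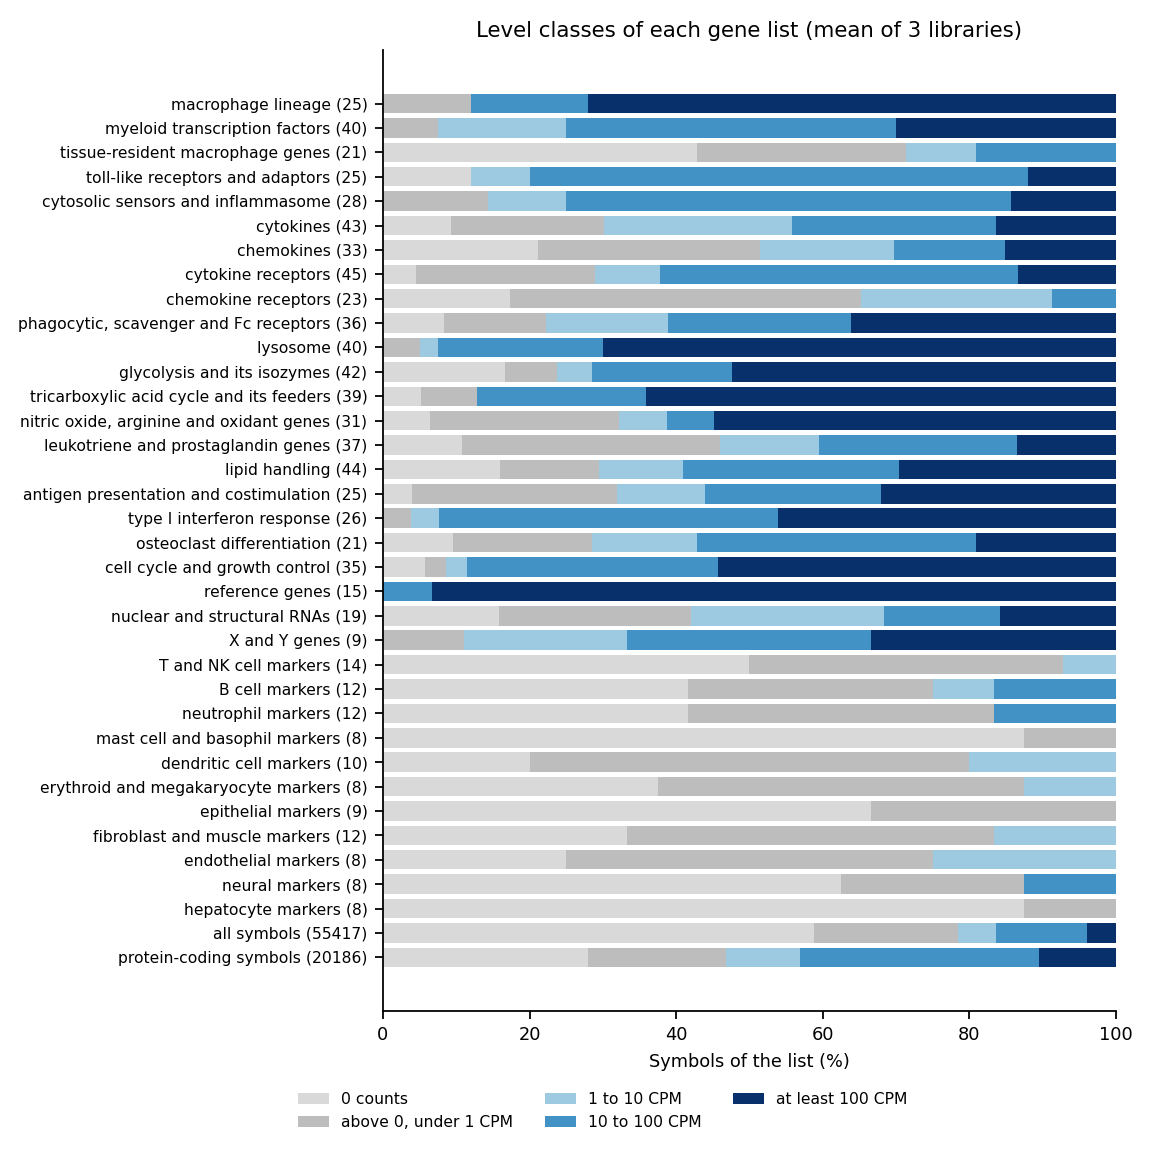
Share of the symbols of each gene list, in percent, that fall in each level class by mean CPM over the 3 shNT libraries, with the number of symbols in parentheses and all symbols and all protein-coding symbols as the bottom bars. The macrophage lineage, lysosome and reference bars are mostly in the darkest class, and the bars of other cell types are mostly grey.

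The counts were spread over many genes. Of the members, 2893 lay from 1 to 10 CPM, 6821 from 10 to 100, 2120 from 100 to 1000 and 81 at 1000 or more. A further 10937 symbols had counts but a mean under 1 CPM, and 32565 symbols (58.8%) had 0 counts in all 3 libraries, 5649 protein-coding symbols among them (28.0%). The 100 symbols with most counts held 23.3%, 23.0% and 22.7% of each library.

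To order genes against one another, CPM was divided by the length of the median annotated transcript and rescaled to a sum of 1000000 per library, called the length-scaled level here. Lengths were found for 11647 members (97.8%). Using the longest transcript instead gave a Spearman correlation of 0.91 with it across 11647 members, but moved 58.3% of them by over 1.5-fold relative to the rest. An order between 2 genes is therefore stated only where both lengths give it. Ratios of 2 genes are given by both lengths.

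Spp1 ranked first of all symbols by either length, at a length-scaled level of 15094 ± 390.4 (SD, n = 3), or 30877 by the longest transcript. Outside mitochondrially encoded and ribosomal protein genes, the highest also included the elongation factors Eef1a1 and Eef2, both ferritin chains Fth1 and Ftl1, the pyruvate kinase Pkm, the ornithine decarboxylase Odc1, Lyz2 and Actb, each within the first 20 by both lengths. Fth1, the iron-oxidising heavy chain of ferritin, gave 7421, 8225 and 8381 CPM, and Ftl1, the light chain, gave 4083, 4709 and 4249 CPM. Odc1, which makes putrescine for polyamine synthesis, gave 5432, 5097 and 6017 CPM.

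Lyz2 was 107 ± 9.64-fold (SD, n = 3, and 107-fold by the longest transcripts) above its neighbour and near-identical paralog Lyz1, which gave 91.9, 83.8 and 73.4 CPM. How the authors' counting divided reads that fit both genes is not given in the sources used here, so the Lyz1 value is uncertain. Several symbols without a settled gene product also ranked high in counts, among them Gm42427 at 7953, 8764 and 8785 CPM and Gm46620 at 5909, 6468 and 5534 CPM, and they are named without a role.

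Toll-like receptors detect microbial products and signal through adaptors of the MyD88 and TRIF branches. Of 25 genes, 22 were members and 3 receptors, Tlr5, Tlr11 and Tlr12, had 0 counts. Tlr5 recognises flagellin, and Tlr11 and Tlr12 recognise profilin. The lipopolysaccharide receptor Tlr4 gave 66.6, 51.2 and 53.2 CPM, while Ly96, which encodes its MD-2 partner, gave 6.58, 5.90 and 7.67 CPM. Tlr2, for lipoproteins, gave 93.0, 88.1 and 85.4 CPM. The nucleic acid receptors were led in counts by Tlr7 at 77.8, 45.0 and 49.3 CPM and Tlr13 at 66.5, 43.2 and 50.8 CPM, both highest in replicate 1. Unc93b1, the chaperone that carries these receptors to endosomes, gave 337, 406 and 407 CPM. Myd88 gave 85.1, 69.7 and 74.2 CPM, Ticam1, which encodes TRIF, gave 45.0, 53.3 and 38.1 CPM, and the inhibitory kinase Irak3 gave 109, 109 and 94.4 CPM.

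Of 28 cytosolic sensor and inflammasome genes, 24 were members. The RNA sensors Rigi, at 209, 183 and 188 CPM, and Ifih1, at 135, 114 and 119 CPM, were well above threshold, as were the DNA sensors Cgas at 55.5, 42.7 and 51.5 CPM and Aim2 at 61.1, 51.7 and 53.8 CPM. Nlrp3, the sensor that assembles an inflammasome after potassium loss, gave 125, 119 and 125 CPM, and its downstream protease Casp1 gave 50.8, 39.5 and 45.0 CPM. Gsdmd, the pore-forming substrate, gave 70.5, 73.9 and 82.2 CPM. The adaptor between sensor and protease was the exception. Pycard, which encodes ASC, had 5 counts over the 3 libraries, 0 of them in replicate 1. Itgam, close by in the genome, is among the abundant genes above. Nlrp12, Mefv and Nlrp6 had 9, 3 and 2 counts.

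Of 43 cytokine genes 30 were members, and of 33 chemokine genes 16, where the share of members among protein-coding symbols is 53.1%. Tnf, the early inflammatory cytokine, gave 346, 361 and 289 CPM, and Csf3, which encodes G-CSF, gave 258, 254 and 245 CPM. Il1rn, the interleukin-1 receptor antagonist, gave 557, 378 and 349 CPM, highest in replicate 1, and per length it was 5.54 ± 0.440-fold (SD, n = 3, and 5.79-fold by the longest transcripts) above Il1b. Il1b itself gave 49.9, 32.6 and 35.1 CPM and Il6 gave 7.61, 4.37 and 4.45 CPM. Tnf was 41.1 ± 12.7-fold (SD, n = 3, and 86.6-fold by the longest transcripts) above Il6. The interleukin-12 subunits Il12a and Il12b had 1 and 5 counts. Genes of lymphocyte cytokines were near or at 0, with Ifng and Il4 at 1 count each and Il2, Il13 and Il17a at 0. Ifnb1, which encodes interferon beta, had 16 counts. Constitutive factors included Grn, the progranulin gene, at 1157, 1384 and 1325 CPM, Mif at 517, 679.6 and 463 CPM and Tgfb1 at 324, 358 and 308 CPM.

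Il33 is an alarmin of the interleukin-1 family. Among protein-coding members of at least 10 CPM, it had the widest range outside model, RIKEN clone, pseudogene and mitochondrial names. It gave 53.0, 21.6 and 20.1 CPM, so replicate 1 lay 2.64-fold above replicate 3 while replicates 2 and 3 were close together.

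Among chemokines, Ccl3 at 1407, 1252 and 979 CPM, Ccl4 at 507, 473 and 526 CPM and Ccl9 at 1213, 854 and 902 CPM were the 3 highest by either length. Ccl3 and Ccl4 encode MIP-1 alpha and beta, which attract monocytes and lymphocytes. Ccl2, which attracts monocytes through CCR2, gave 234, 199 and 170.3 CPM. Cxcl2, a neutrophil attractant, gave 249, 233 and 228 CPM, whereas its close relative Cxcl1 had 3 counts in all. Cxcl12, Cxcl13, Ccl19 and Ccl20 had 0 counts. The summed level of the chemokine list was 3783 CPM in replicate 1, 3150.3 in replicate 2 and 2952 in replicate 3.

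Receptors for these signals differed by family. Of 45 cytokine receptor genes, 32 were members. Csf1r was the highest by both lengths, and 6.53 ± 1.42-fold (SD, n = 3, and 4.49-fold by the longest transcripts) above Csf2ra, a subunit of the GM-CSF receptor, which gave 102, 142 and 126 CPM. Both tumour necrosis factor receptors were present, Tnfrsf1b at 273, 242 and 227 CPM and Tnfrsf1a at 103, 108 and 97.1 CPM. The interferon receptor chains Ifnar1, Ifnar2, Ifngr1 and Ifngr2 had means between 30.5 and 85.0 CPM. For interleukin-1, the accessory chain Il1rap gave 32.9, 25.7 and 28.6 CPM, while the signalling receptor Il1r1 had 6 counts and the decoy Il1r2 had 1. Il1rl1, the receptor for interleukin-33, gave 57.7, 49.0 and 57.4 CPM. Kit and Il3ra had 0 counts.

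Chemokine receptors were sparse, with 8 of 23 genes at 1 CPM or more and none with a mean of 100 CPM. Cx3cr1, the fractalkine receptor of monocytes, gave 71.3, 61.6 and 53.5 CPM. Ccr1, the receptor for several of the chemokines above, gave 56.7, 33.2 and 31.0 CPM, with replicate 1 apart from the other libraries. Ccr2, the receptor of inflammatory monocytes, gave 4.14, 3.44 and 3.38 CPM. Cxcr4, the CXCL12 receptor of most leukocytes, had 5 counts, and Ccr6, Ccr8, Ackr1 and Ackr3 had 0.

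Uptake receptors were represented by 28 of 36 genes. The scavenger receptors Msr1, at 589.8, 482 and 472 CPM, and Cd36, at 544, 384 and 416 CPM, bind modified lipoproteins. Lrp1, a large endocytic receptor, gave 735, 808 and 735 CPM, and Siglec1, a sialic acid-binding lectin, gave 700.3, 760.0 and 644 CPM. Clec4d and Clec4e, which recognise mycobacterial glycolipids, gave 253, 224 and 229.9 CPM and 232, 199 and 184 CPM. Clec7a, the beta-glucan receptor dectin-1, was low at 2.92, 2.57 and 2.93 CPM, and Marco had 3 counts. Of the TAM receptors for apoptotic cells, Axl gave 11.1, 8.84 and 8.51 CPM, Tyro3 gave 1.89, 2.51 and 2.09 CPM and Mertk was near 0 as above.

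The degradative machinery was nearly complete, with 38 of 40 lysosomal genes at 1 CPM or more and 28 at 100 or more. The cathepsins Ctsb at 3072, 3412 and 3445 CPM, Ctsd at 2572, 2788 and 2728 CPM and Ctsl at 2046, 1939 and 2131 CPM are the abundant lysosomal proteases. Ctss, the cathepsin that trims the invariant chain, gave 409, 372 and 445 CPM. Psap, the precursor of the saposins, gave 1069.9, 1102 and 1248 CPM, and Lamp1, a membrane glycoprotein of the organelle, gave 835, 813 and 737 CPM. The 2 genes under 1 CPM were Ctsk with 37 counts and the proton pump subunit Atp6v0d2 with 35, both known for their high level in osteoclasts.

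RAW264.7 cells are widely used as osteoclast precursors. Of 21 osteoclast genes, 15 were members. Tnfrsf11a, which encodes the receptor RANK, gave 75.9, 74.5 and 72.4 CPM, and the master factor Nfatc1 gave 52.6, 54.5 and 48.6 CPM. Acp5, which encodes tartrate-resistant acid phosphatase, gave 33.2, 24.9 and 19.6 CPM, highest in replicate 1. Calcr and Oscar had 0 counts, and Tnfsf11, the gene of RANK ligand, also had 0.

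At several steps of glycolysis a single isozyme held most of the level. Of 42 genes of the pathway and its isozymes, 32 were members and 7 had 0 counts. Those 7 included the liver or testis forms Pklr, Slc2a2, Pgk2 and Ldhc, together with the heart form Ldhb. Pkm gave 6671, 7141 and 7544 CPM. Ldha, the muscle form of lactate dehydrogenase, gave 1932, 2014 and 1902 CPM, which per length is at least 24500.2-fold higher than Ldhb, with Ldhb set at 3 counts over the group. Of the genes near Ldhb in RefSeq order, Gys2 and Kcnj8 also had 0 counts, while Golt1b and Cmas had means of 47.2 and 89.4 CPM. Pkm was in the same way at least 58493-fold higher than Pklr.

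Where several isozymes were present, their proportions differed by step. Eno1 gave 1030.4, 1096 and 1049 CPM and was 34.2 ± 0.281-fold (SD, n = 3, and 24.6-fold by the longest transcripts) above Eno3, the muscle enolase. Glucose uptake was led by Slc2a1, which encodes GLUT1, at 404, 418 and 404 CPM, 7.69 ± 0.526-fold (SD, n = 3, and 17.9-fold by the longest transcripts) above Slc2a3. Hexokinases 1, 2 and 3 were all present. Hk1 gave 349, 401 and 366 CPM and was 5.32 ± 0.374-fold (SD, n = 3, and 2.69-fold by the longest transcripts) above Hk2, which gave 169.5, 178 and 187 CPM. Pfkp at 404, 426 and 444 CPM and Pfkl at 214, 228 and 236 CPM were the phosphofructokinases, with Pfkm at 18.6, 22.9 and 26.4 CPM. Slc16a3, the lactate exporter MCT4, gave 472, 513 and 409.8 CPM. Gapdh, often used as a reference gene, gave 1813, 1890.1 and 1282 CPM, and its library of replicate 3 was the low one. Actb, another reference gene, stayed within 1.04-fold.

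**Figure D3:**
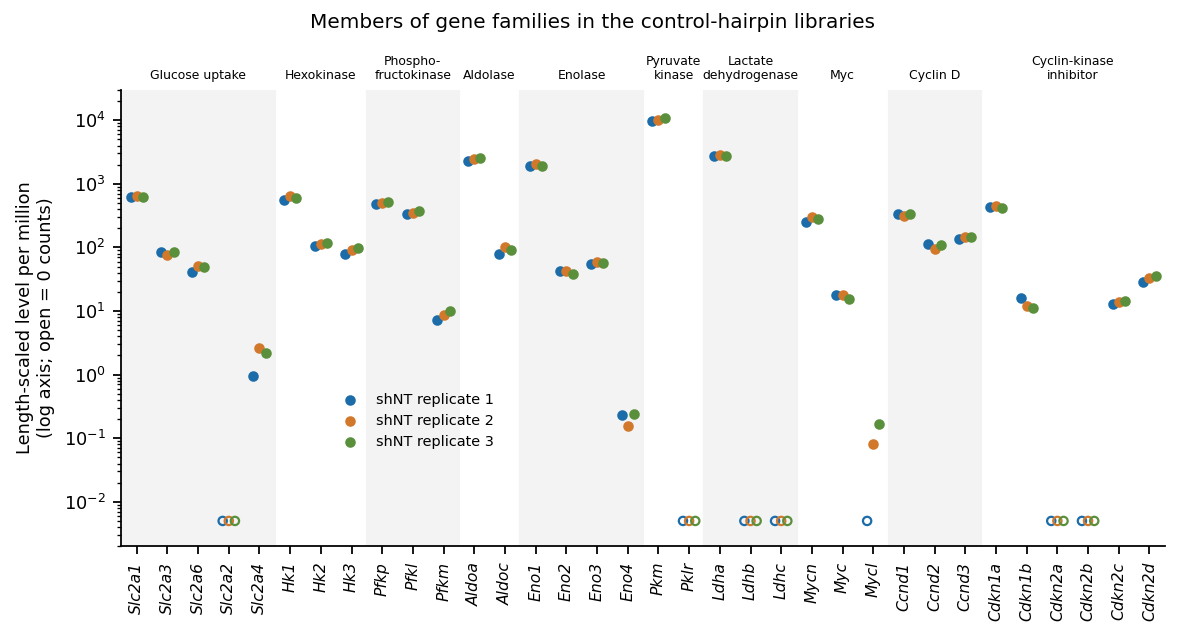
Length-scaled level of members of 10 gene families in each of the 3 shNT libraries, on a log axis; open points at the bottom are genes at 0 counts. A single member stands more than 10-fold above the rest among aldolases, enolases, pyruvate kinases, lactate dehydrogenases and Myc genes, while hexokinases and cyclins D lie closer together.

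The tricarboxylic acid cycle and its feeder enzymes had 34 of 39 genes at 1 CPM or more. Acod1, which encodes the enzyme that makes itaconate from aconitate, gave 874, 775 and 796 CPM. This gene is known as strongly induced by lipopolysaccharide. Mdh2, malate dehydrogenase of the mitochondrion, gave 459, 537 and 524 CPM, Cs, citrate synthase, gave 381, 409 and 389 CPM, and Acly, which returns citrate to acetyl-CoA, gave 322, 385 and 345 CPM. Of the pyruvate dehydrogenase kinases, Pdk1 gave 66.0, 63.8 and 62.2 CPM and Pdk3 gave 44.5, 43.0 and 47.1 CPM, while Pdk4 had 0 counts.

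In arginine metabolism, Nos2, the inducible nitric oxide synthase, gave 416, 391 and 364 CPM. Arg1, the arginase of alternatively activated macrophages, gave 1.83, 1.31 and 1.35 CPM, and Nos2 was 53.4 ± 7.25-fold (SD, n = 3, and 91.8-fold by the longest transcripts) above Arg1. Slc7a1, a cationic amino acid transporter, gave 268, 275 and 254 CPM, whereas Slc7a2 had 20 counts. Of the phagocyte NADPH oxidase, the membrane subunits Cybb and Cyba gave 1048, 916 and 875 CPM and 258, 329.8 and 366 CPM, and the cytosolic subunits Ncf1 and Ncf4 had means of 294 and 106 CPM.

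NRF2-regulated genes of oxidant defence were far apart. Hmox1, haem oxygenase, gave 666, 584 and 558 CPM, and Txnrd1, thioredoxin reductase, gave 340.2, 318 and 335 CPM. Nqo1, a quinone reductase, had only 10 counts over the 3 libraries, and Gpx3 had 9 where Gpx1 gave 206, 193 and 191 CPM.

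Eicosanoid synthesis starts with phospholipase A2 and divides into the prostaglandin and leukotriene branches. Of 37 genes 20 were members. Pla2g4a, the cytosolic phospholipase, gave 279, 231 and 258 CPM. Ptgs2, the inducible cyclooxygenase, gave 787, 662 and 587 CPM, highest in replicate 1, and was 20.4 ± 4.05-fold (SD, n = 3, and 45.4-fold by the longest transcripts) above the constitutive Ptgs1. In the leukotriene branch, Alox5 gave 41.1, 48.9 and 42.8 CPM and its activating protein Alox5ap gave 177, 191 and 176 CPM. Lta4h, which makes leukotriene B4, gave 66.0, 65.1 and 63.8 CPM, and Ltc4s, which makes leukotriene C4, gave 3.29, 3.44 and 4.62 CPM. The gamma-glutamyl transferases Ggt1 and Ggt5, which convert leukotriene C4 to D4, had 10 and 1 counts. Of the dipeptidases that convert D4 to E4, Dpep2 is given above, Dpep3 had 13 counts and Dpep1 had 0. Cysltr1, a receptor for these lipids, gave 14.7, 9.06 and 9.86 CPM, and Cysltr2 had 4 counts.

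Lipid handling genes had 31 members of 44. Plin2, the coat protein of lipid droplets, gave 405, 407 and 407 CPM, one of the 6 narrowest ranges of any member of at least 10 CPM. Soat1, which esterifies cholesterol, gave 389, 341 and 368 CPM, and Lpl, lipoprotein lipase, gave 495, 418 and 411 CPM. Of the cholesterol exporters, Abcg1 gave 63.3, 68.8 and 62.3 CPM and Abca1 gave 19.7, 16.7 and 15.7 CPM. Apoe, the apolipoprotein that primary macrophages secrete abundantly, was low at 1.77, 2.07 and 2.48 CPM, while the adjacent Tomm40 gave 132, 148 and 154 CPM and Apoc1 had 0 counts.

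In antigen presentation the class I pathway was present and the class II pathway largely missing. Of 25 genes 17 were members. H2-D1 and H2-K1, class I heavy chains, gave 1438, 1708 and 1815 CPM and 464, 552 and 619 CPM, and B2m, their light chain, gave 949, 896 and 790.4 CPM. Heavy chain genes are closely similar to one another, so their individual values are uncertain. Ciita, the master activator of class II genes, had 0 counts. H2-Ab1, H2-Eb1 and H2-Aa, which encode class II chains, had 49, 28 and 6 counts. Cd74, the invariant chain that escorts class II molecules, nevertheless gave 666, 737 and 780.3 CPM and was 466 ± 74.1-fold (SD, n = 3, and 673-fold by the longest transcripts) above H2-Ab1. Among costimulatory genes, Cd80 gave 65.9, 48.5 and 45.4 CPM and Cd86 gave 1.64, 2.35 and 2.20 CPM.

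Interferon-response genes were nearly all present, with 25 of 26 at 1 CPM or more and 12 at 100 or more. Ifitm3, an antiviral membrane protein, gave 712, 843 and 698 CPM, and Irf7, the factor that amplifies interferon production, gave 554, 658 and 579 CPM. Bst2, or tetherin, gave 396, 493 and 456 CPM, Oas3, an oligoadenylate synthetase, gave 348, 392 and 349 CPM, and Usp18, which removes ISG15 from proteins, gave 198, 175 and 179 CPM. Isg15 gave 86.2, 91.9 and 104 CPM and Rsad2, viperin, gave 101, 81.2 and 93.1 CPM. The lowest were Mx1 at 6.64, 5.24 and 4.90 CPM and Ifitm1 with 28 counts.

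Cell cycle genes had 32 of 35 members. Mki67, a marker of cycling cells, gave 299, 280.0 and 272 CPM, and Top2a gave 344, 288 and 339 CPM. Mycn was the leading Myc gene at 591, 712 and 657 CPM, 16.3 ± 2.02-fold (SD, n = 3, and 20.1-fold by the longest transcripts) above Myc, which gave 29.7, 29.8 and 25.9 CPM. Of the D cyclins, Ccnd1 gave 561, 523 and 558 CPM, 2.32 ± 0.195-fold (SD, n = 3, and 4.98-fold by the longest transcripts) above Ccnd3. Cdkn2a and Cdkn2b, the inhibitors of the INK4 locus, had 0 counts, and Mtap, the gene beside Cdkn2a, gave 78.9, 65.0 and 65.8 CPM. Other genes near Cdkn2a in RefSeq order, namely Ifna4, Ifna1, Ifne, Dmrta1, Zfp352 and Elavl2, also had 0 counts. Cdkn1a, which encodes p21, gave 467, 494 and 463 CPM, per length at least 3572-fold higher than Cdkn2a at 3 counts over the group. Trp53 gave 178, 183 and 161 CPM and its negative regulator Mdm2 gave 248, 191 and 218 CPM.

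Genes of the Y chromosome were expressed, as RAW264.7 is a male line. Ddx3y, Eif2s3y, Kdm5d and Uty were members, with means from 4.96 to 17.0 CPM, and Xist, the X-inactivation RNA, had 12 counts. Eif2s3x was 11.2 ± 0.849-fold (SD, n = 3, and 13.5-fold by the longest transcripts) above its Y homologue.

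The 3 libraries were close but not identical. The coefficient of variation (CV, SD over mean) had a median of 9.69% over members, against 4.21% from counting alone. It exceeded its counting value in 9826 of 11915 members, a number that includes genes exceeding it through counting error alone. The common biological coefficient of variation from edgeR, with 1 mean for the group, was 11.4%. By level, the median CV was 16.4% at 1 to 10 CPM, 8.85% at 10 to 100, 7.77% at 100 to 1000 and 8.32% at 1000 or more. Log2 CPM correlated between pairs of libraries with Pearson coefficients of 0.98 across genes, and a chi-square of the counts per degree of freedom was 16.6 to 28.0. Each pair thus differed by more than counting error alone. Whether libraries shared a culture, an RNA or a preparation cannot be told from this value.

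Ranges over 2-fold between highest and lowest library were found in 333 members (2.79%), and in 44 of the 9022 members of at least 10 CPM (0.488%). Those 44 included 16 pseudogenes, 10 mitochondrially encoded genes and 12 other protein-coding symbols, 7 of which have model or pseudogene names. Among all 11915 members, from 1 CPM rather than 10, 284 are of pseudogene types, 16 are mitochondrially encoded and 10724 are protein-coding. The pseudogene Pgk1-rs7 gave 47.0, 6.22 and 197 CPM while its parent Pgk1 gave 1718, 1807 and 1688 CPM. Gm10052 and Gm28439 had 811 and 975 counts in replicate 3 and at most 11 in either other library. How reads shared with parent genes were divided is not given in the sources used here, so these values are uncertain. The narrowest ranges were those of Ganab, at 313, 313 and 313 CPM, Dnajc1, Timp1, Gba2, Plin2 and Ago1.

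Mitochondrially encoded genes, whose protein-coding members encode subunits of the respiratory chain, mostly differed together. They held 3.28% of counts in replicate 1, 2.36% in replicate 2 and 1.45% in replicate 3. Of the 13 protein-coding ones, 12 were highest in replicate 1 and lowest in replicate 3, and 10 differed by over 2-fold. mt-Co1, subunit 1 of cytochrome oxidase, gave 14862, 11106 and 6674 CPM, and mt-Nd4, of complex I, gave 1611, 971 and 461 CPM. mt-Atp8 was the exception among the 13, at 97.8, 116 and 80.0 CPM. Of the RNA genes, mt-Rnr1 gave 338, 225 and 212 CPM and followed the same order. mt-Rnr2, at 263, 180 and 189 CPM, was lowest in replicate 2. mt-Ts1, at 10.4, 11.1 and 12.8 CPM, was highest in replicate 3. Rn18s-rs5, a symbol for ribosomal RNA sequence, was lowest in replicate 1 and highest in replicate 3, at 1488, 2490.3 and 3575 CPM. Nuclear genes of the cycle showed no such range, with Mdh2, Cs and Sdha each within 1.17-fold. The part of either shift in the other was not tested.

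Base composition also moved with the libraries. Over 8932 members of at least 10 CPM with a known GC content, the deviation of a library from the mean of the 3 had a Spearman correlation with GC of -0.67 in replicate 1, 0.70 in replicate 2 and 0.09 in replicate 3. These are descriptions across genes of the same libraries. In the lowest decile by GC content the median log2 difference of replicate 2 minus replicate 1 was -0.31, and 4.25% of genes were higher in replicate 2. In the highest decile it was 0.25, and 95.4% were higher. The mitochondrial genes have 31.9% to 41.1% GC, at the low end of this range. The part of base composition in the range of any single gene was not tested.

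**Figure D4:**
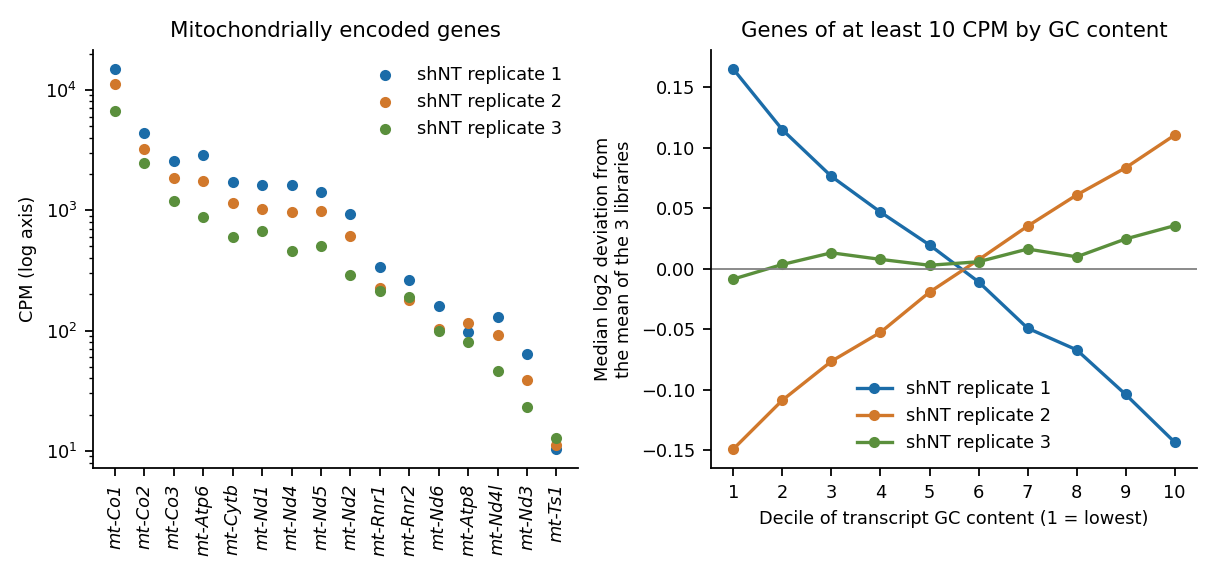
Left, CPM of the 16 mitochondrially encoded members in each shNT library on a log axis; right, median log2 deviation of each library from the mean of the 3 for genes of at least 10 CPM, in deciles by transcript GC content. Replicate 1 is highest for most mitochondrial genes, and replicates 1 and 2 deviate in opposite directions with GC content, by up to 0.16 in size.

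Sequence near the start differed between genes of different level. A RefSeq window of 250 upstream bases was found for 15638 protein-coding symbols, and motifs were searched on both strands. CGGAAGT, shown above for Laptm5 and P4hb, was in 1.29% of 4171 promoters of genes with 0 counts (Wilson 95% interval 0.994 to 1.69) and in 12.1% of 1568 promoters of genes with a length-scaled level of at least 100 (10.5 to 13.8), beside 7.07% over all. GGGCGG, the GC box of Sp and KLF factors, was in 24.1% and 62.9% of the same classes, beside 46.9% over all. TATAAA ran the other way, with 18.7% and 6.25%, beside 10.5% over all. CACGTG, the E-box of Myc and related factors, was in 4.72% and 10.5%, beside 7.14%. CCAAT differed little, with 35.9% and 37.2%, beside 36.4%.

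GC content differed between the same classes. Its median was 49.6% in promoters of genes at 0 counts and 60.4% in the highest class, and the median number of CG dinucleotides was 3 and 18. CGGAAGT and GGGCGG each contain CG, and the part of base composition in their shares was not tested. A match describes letters in the window and does not show binding.

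AGGAAGT, in contrast, had overlapping intervals in promoters of genes at 0 counts and of the highest class, at 7.17% (6.42 to 7.99) and 7.78% (6.56 to 9.21), beside 7.59% over all. Among the lists it was in 5 of 18 macrophage lineage promoters, those of Spp1, Lyz2, Fcgr1, Ptprc and Mrc1, and Mrc1 is under 1 CPM. It was also in 6 of 12 neutrophil and 5 of 11 T and NK cell marker promoters, lists that hold almost no expressed genes here. The interferon response core was in 2.85% of all promoters and in 10 of 20 interferon-response promoters, namely those of Bst2, Trim30a, Ifitm2, Oas3, Oas1a, Stat2, Isg15, Rsad2, Ifit3 and Ifit1.

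**Figure D5:**
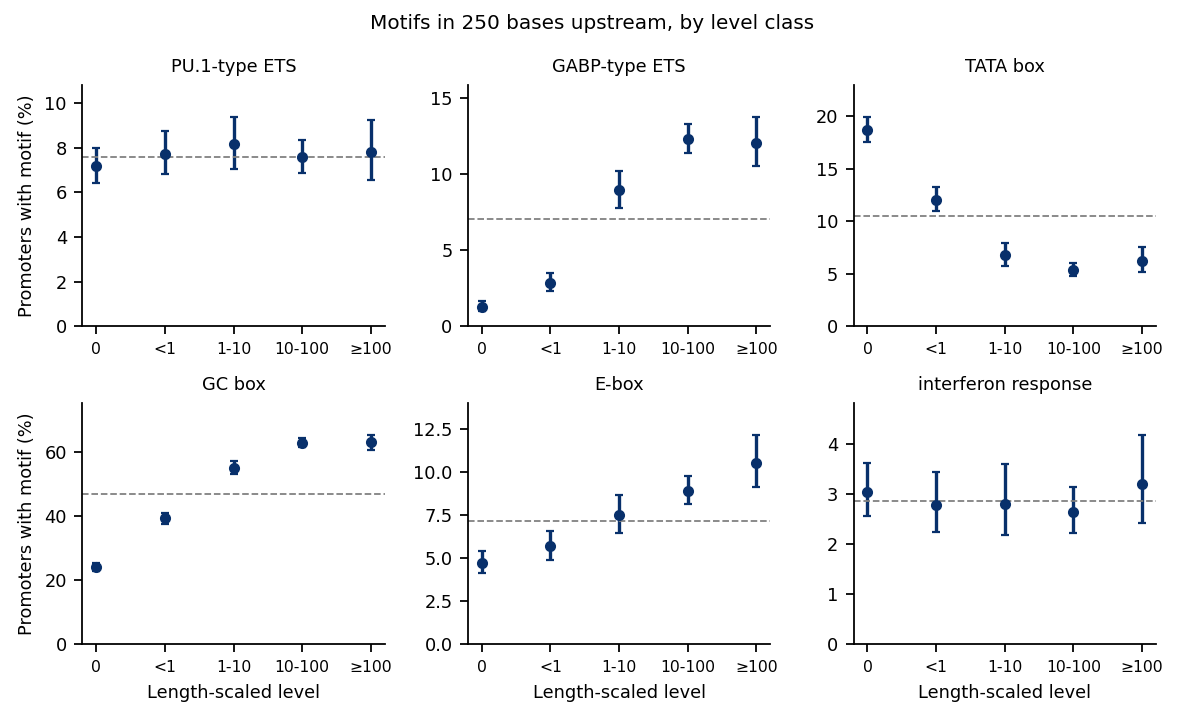
Share of protein-coding promoters, in percent, whose 250 upstream bases hold each of 6 motifs, by length-scaled level class of the gene; bars are Wilson 95% intervals and dashed lines the share over all promoters. The GABP-type, GC box and E-box shares are higher in the expressed classes, the TATA box share is lower, and the PU.1-type and interferon-response shares are level.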

How the data were processed

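The TruSeq Stranded Total RNA kit was used for the RNA of RAW264.7 cells and paired ends were sequenced, per the labels' protocols. The authors deposited whole-number counts for 55417 gene symbols. Trim Galore and Salmon are listed in the submitters' processing notes beside the human build hg38, although the symbols are mouse. Which annotation and strand setting were used, and whether estimates were rounded, is not given in the sources used here. Reads shared by near-identical genes may have been divided by a model, and antisense or overlapping genes may share reads.

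Only the 3 shNT libraries entered the values, except that an alternative scaling used all 7 libraries. CPM used TMM-scaled library sizes (edgeR 4.0.16, R 4.3.3). Transcript lengths and GC content came from GENCODE M21 for 48693 symbols, 478 of them through RefSeq synonyms, and symbols without a length held 1.92% of counts. Promoter windows came from RefSeq GRCm38.p6, using the first listed start of a symbol. No row of the table lacked a gene name. With 1 group there was no comparison and no test. Dispersion estimation was tested on simulated data. Limits for 0 counts used 3 counts and cover counting error only, and reads without molecular identifiers are not independent molecules. Wilson intervals of motif shares treat promoters as independent draws and do not cover the spread between libraries.

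Members and gene lists were chosen with earlier results of these data known. Named genes were the markers and Dpep2, the 15 highest symbols per length, the 6 highest and up to 3 lowest members of each list, and the 12 widest and 6 narrowest ranges at 10 CPM or more. Other genes, neighbours, pairs and the interferon and CGGAAGT promoter sets were named after their values were seen. Some genes that these rules pick are not reported here. Alternatives were total-count, DESeq2 1.42.0 and 7-library scaling, thresholds of 0.5 and 2 CPM or of 1 CPM in each library, each library left out, the longest transcript, motif classes by CPM, no low-count filter for the dispersion, and the top 100 without mitochondrial and structural RNAs.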

Additional observations from a re-analysis of the deposited data

How the results depend on the processing

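No paired analysis was possible because a single group of 3 libraries was described and no value comes from a test. The 3 scalings tried kept all 42 summary values compared within their limits (a count within 1.5 times, another value within 1 SD between libraries). Among these values, the length-scaled levels of Lyz2, Spp1, Adgre1 and Cd68 could not change, since they are rescaled to a fixed sum per library. The number of members was 11899 to 11950 when 1 library was left out. Members ranging over 2-fold numbered 333, 114 without replicate 1, 206 without replicate 2 and 154 without replicate 3, where only 2 libraries are compared. They numbered 774 from 0.5 CPM, 153 from 2 CPM and 152 with 1 CPM required in each library. Some short marker lists also changed. Dendritic cell members went from 2 to 4 at 0.5 CPM, and fibroblast and muscle members from 2 to 1 at 2 CPM. Erythroid and megakaryocyte members went from 1 to 3 at 0.5 CPM and to 0 at 2 CPM or with 1 CPM in each library, and ranged from 0 to 1 with 1 library left out, the 0 being without replicate 3. Endothelial members went from 2 to 1 at 2 CPM or with 1 CPM in each library, and ranged from 1 to 2 with 1 library left out, the 1 being without replicate 1. With 1 library left out, the median CV of 9.69% ranged from 6.73% to 8.99%. The common biological coefficient of variation of 11.4% ranged from 9.96% to 12.4%, and each was lowest without replicate 1. A median CV over 2 libraries tends to lie below that over 3 at the same spread, so these medians are not directly comparable with 9.69%. The top 100 symbols held 23.0% on average and 21.9% without mitochondrially encoded and structural RNAs. By the longest transcript, the length-scaled level went from 7478 to 16348 for Lyz2, from 15094 to 30877 for Spp1, from 155 to 96.1 for Adgre1 and from 459 to 821 for Cd68. CGGAAGT was in 9.65% of promoters of the highest class when classes were set by CPM, against 12.1%. Among 759 single genes under 6 settings, 3 values moved by over 1 SD and 4551 did not, and those 3 were of Plin2, whose SD is 1.08 CPM. Leaving out 1 of 3 libraries cannot move a mean by 1 SD of the 3, except through the rescaling. The leave-one-out settings among the 6 therefore say little about the stability of single genes. Genes at a few counts are limited by depth. Levels at 0 counts are known only to lie under 0.0572 CPM, and hairpin-free cells were not analysed here.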

Other observations

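Several long noncoding RNAs were present at moderate levels. Malat1, a nuclear speckle RNA, gave 405, 422 and 485 CPM, Neat1, the scaffold of paraspeckles, gave 380, 418 and 426 CPM, and Norad gave 113, 109 and 129 CPM. Of 19 nuclear and structural RNA genes 11 were members, and the imprinted H19 and Meg3 had 0 counts. Mir155hg, the host transcript of a microRNA induced by Toll-like receptors, gave 5.42, 3.22 and 3.33 CPM. Rn7sk, the RNA that holds the elongation factor P-TEFb inactive, gave 1.16, 2.02 and 2.42 CPM, and the RNA components Rmrp and Terc had 1 and 5 counts over the 3 libraries.

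The 83 cytosolic ribosomal protein symbols, of which 80 were members, held 3.51%, 3.90% and 3.87% of counts in replicates 1, 2 and 3. Symbols of pseudogene types held 2.20%, 2.44% and 2.37%, and only 284 of 12132 were members. Of members of at least 10 CPM, 40 in replicate 3 lay over 1.5-fold below both other libraries, against 32 in replicate 1 and 10 in replicate 2. Replicate 1 lay over 1.5-fold above both others for 23 members, replicate 3 for 11 and replicate 2 for 5.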
